A study of Mus musculus with 6 samples.

Results

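The inducible heat shock chaperones are described here as 10 mouse genes, matched by symbol in a lung RNA table of 24054 gene rows. They are the HSP70 genes Hspa1a, Hspa1b and Hspa8, the HSP40 genes Dnajb1 and Dnaja1, the HSP110 gene Hsph1, the HSP90 gene Hsp90aa1, the small heat shock gene Hspb1, and the mitochondrial chaperonin genes Hspd1 and Hspe1. All 10 had a row, and all 10 passed the filter of a mean of at least 1 that left 14159 genes for testing. They were chosen by symbol, with their measured values in this same comparison of EV groups known, so their differences are given as a description and not as a test. Lungs of 6 female SCID mice were sequenced, 3 per group, after extracellular vesicles (EVs), membrane-bound particles that cells release, were injected into the tail vein. In the Tsc1-null EV group the vesicles came from neural progenitors lacking Tsc1, whose product restrains the growth kinase mTORC1, and in the WT EV group from wild-type progenitors. Both sets of progenitors were taken from E15.5 mouse embryos, and both sets of vesicles carried CD9, CD63 and CD81 and were fluorescently labelled. All mice, 48 h after the EVs, were given 500000 rat ELT3 cells into a vein, a line that models lymphangioleiomyomatosis, and their lungs were taken 72 h after that. The EV donor cells and not the mice differed in Tsc1, and lungs that got no EVs, or no ELT3 cells, were not analysed here. Any reads of the rat cells are mixed with those of the mouse. The labels do not say whether the EVs of a group came from 1 culture or several. The library numbers run on from 1 group to the next. The labels do not say whether they follow an order of handling, which then could not be told apart from group.

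Heat shock proteins keep other proteins folded. HSP70 binds exposed stretches of unfolded protein, HSP40 partners deliver clients and start its ATP cycle, and HSP110 resets the cycle by exchanging nucleotide. HSP90 matures kinases and steroid receptors, small heat shock proteins hold unfolding proteins without ATP, and HSP60 with its lid HSP10 folds proteins inside mitochondria. Under heat, oxidants or other protein damage, the factor HSF1 binds heat shock elements, inverted repeats of the letters GAA, and drives the inducible genes. In mice Hspa1a and Hspa1b are nearly silent at rest in most tissues, while Hspa8 is expressed constitutively.

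Values are TMM-normalized CPM on a linear scale, the reads of a gene relative to all reads of its library, from 5101413 to 9358820 reads assigned to genes per library. The libraries that stood apart were Tsc1-null EV replicate 1 (median correlation with the rest 0.942) and WT EV replicate 2 (0.963), against 0.980 to 0.982 for the other 4. The nuclear RNA Malat1 stood at 30060, 1609 and 2201 CPM in Tsc1-null EV replicates 1 to 3, against 2819, 15673 and 2398 CPM in WT EV replicates 1 to 3. Values without both of these libraries are given beside the results below that they move most. The tissue label was borne out by lung markers, with Sftpc, the surfactant protein of alveolar type 2 cells, and Scgb1a1, the club cell secretoglobin, among the most abundant. At an adjusted p under 0.05, limma's moderated test passed 0 of the 14159 genes, none of the 10 chaperones among them, and 930 genes (6.57%) had an unadjusted p under 0.05. EdgeR also passed 0 (6.82% unadjusted). DESeq2 passed 14 (6.7% unadjusted), of which 8 were higher with Tsc1-null EV (0.0843%), Hspa1a among them, and 6 lower (0.0632%).

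The promoters of the genes whose values differ most between the groups, Hspa1a and Hspa1b, are shown first, with those of Hspb1 and Hspe1, whose values lay on the other side. Each line gives the 250 bases before the start site (for Hspe1 a stretch of 30 bases), 5′ to 3′ on the gene's strand, from RefSeq on build GRCm38.p6. Capitals mark the 8-base heat shock words GAANNTTC and TTCNNGAA, each of which reads the same on both strands.
Hspa1a, chr17:34972157-34972406, minus strand: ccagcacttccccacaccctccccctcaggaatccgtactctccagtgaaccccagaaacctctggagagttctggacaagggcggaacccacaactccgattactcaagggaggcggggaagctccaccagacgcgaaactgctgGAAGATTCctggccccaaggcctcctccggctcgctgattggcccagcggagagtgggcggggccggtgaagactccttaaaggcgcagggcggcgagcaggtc
Hspa1b, chr17:34959239-34959488, minus strand: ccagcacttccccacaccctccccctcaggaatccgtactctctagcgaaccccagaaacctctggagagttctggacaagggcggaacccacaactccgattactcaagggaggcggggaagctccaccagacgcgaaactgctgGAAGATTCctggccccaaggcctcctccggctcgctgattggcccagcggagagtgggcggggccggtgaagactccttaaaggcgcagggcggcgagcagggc
Hspb1, chr5:135887669-135887918, plus strand: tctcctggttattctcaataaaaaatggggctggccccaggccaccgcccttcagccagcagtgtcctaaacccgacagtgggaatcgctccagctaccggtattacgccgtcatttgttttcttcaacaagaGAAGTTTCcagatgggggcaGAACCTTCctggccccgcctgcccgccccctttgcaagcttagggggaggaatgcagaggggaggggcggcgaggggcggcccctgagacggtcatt
Hspe1, chr1:55088053-55088082, plus strand: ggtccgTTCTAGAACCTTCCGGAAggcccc

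The Hspa1a and Hspa1b windows are identical at 247 of 250 bases. Counted from 1 at the 5′ end of the Hspa1a window, they differ by C44T, T47C and T249G. Both hold 1 word, whose first base lies 104 bases before the start. Hspb1 holds 2 words, 117 and 97 bases before its start, and Hspe1 holds 3 overlapping words 79 to 89 bases before its start. Of the 8 genes in the RefSeq promoter table, 7 had at least 1 of the words in a window, against 14.5% of all 27025 genes in that table. The exception was Dnajb1. The nearly identical windows of Hspa1a and Hspa1b count as 2 of the 7. The 13-base words GAANNTTCNNGAA and TTCNNGAANNTTC, 3 units long and reverse complements of each other, were found in a window of 2 of the 8 genes, Hspe1 and Hspd1, against 0.514% of all genes. Hspd1 has 2 windows in that table, and the window nearest its annotated start held 0 of the words, so its match came from the other. The 2 genes lie head to head, and whether 1 stretch was counted for both was not tested. Each 13-base word contains the 8-base words. Hspa8 and Hsp90aa1 had no entry. The windows hold these letters in genes on both sides of the comparison, Hspa1a as well as Hspb1, and a match is not a binding site.

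Hspa1a and Hspa1b, the stress-inducible cytosolic HSP70s, lay highest above WT EV of the 10 genes. Hspa1a stood at 291.5, 110.0 and 191.6 CPM in Tsc1-null EV replicates 1 to 3, against 44.5, 32.6 and 69.1 CPM in WT EV replicates 1 to 3. All 3 Tsc1-null EV lungs were above all 3 WT EV lungs. The means were 197.7 ± 90.9 CPM with Tsc1-null EV and 48.7 ± 18.6 CPM with WT EV (SD, n = 3 each), and the log2 fold of value + 1 was 1.95 ± 0.37 (SE). Hspa1b stood at 369.7, 138.7 and 209.0 CPM in the Tsc1-null EV lungs, against 60.5, 71.6 and 156.7 CPM in the WT EV lungs. Here the groups overlapped, since WT EV replicate 3 lay above Tsc1-null EV replicate 2. Its log2 fold was 1.32 ± 0.42. By size of the log2 fold from the highest down, Hspa1a ranked 6 and Hspa1b 23 among the 14159 genes.

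Both genes lie on the minus strand of chromosome 17 in GRCm38 (GENCODE M21), Hspa1a from 34969190 to 34972156 and Hspa1b from 34956436 to 34959238, with starts 12918 bases apart. Each has 1 exon. Of the 50-base words in Hspa1a transcripts, 58.8% also occur in Hspa1b, and 62.3% of those of Hspa1b occur in Hspa1a. Reads in these stretches cannot be assigned to either gene from sequence, and how they were counted is not stated. If they were split between the genes, the sum is more secure than the parts. If they were dropped, the sum misses them too. Over all other genes 66.3% of the Hspa1a words are shared, so some are shared outside the pair, which the sum does not mend. Summed, the pair stood at 661.1, 248.6 and 400.6 CPM in the Tsc1-null EV lungs, against 105.0, 104.2 and 225.8 CPM in the WT EV lungs. The groups did not overlap, but Tsc1-null EV replicate 2 and WT EV replicate 3 lay close together. The summed means were 436.8 ± 208.6 CPM and 145.0 ± 70.0 CPM, with a log2 fold of 1.57 ± 0.40. The sum rested on 2306 to 3626 reads per Tsc1-null EV library and on 709 to 1830 per WT EV library. Without both libraries standing apart the log2 folds were 1.37 ± 0.24 for Hspa1a, 0.80 ± 0.33 for Hspa1b and 1.03 ± 0.29 for the sum, with 2 libraries per group. With sample weights, which gave Tsc1-null EV replicate 2 and WT EV replicate 3 the most weight, they were 1.03, 0.29 and 0.57.

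The share of the pair's reads given to Hspa1a was 44.1% (95% Wilson interval 42.4 to 45.8%), 44.2% (42.2 to 46.3%) and 47.8% (46.2 to 49.4%) in Tsc1-null EV replicates 1 to 3. In WT EV replicates 1 to 3 it was 42.4% (39.1 to 45.7%), 31.3% (28.0 to 34.8%) and 30.6% (28.5 to 32.8%). WT EV replicate 1 lay near the Tsc1-null EV lungs and the other 2 below them. These intervals cover counting error only.

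Hspa8, the constitutive HSP70 that folds new proteins and uncoats clathrin vesicles, did not share this pattern. It stood at 1972, 3276 and 3454 CPM in Tsc1-null EV lungs, against 2834, 2268 and 3312 CPM in WT EV lungs. The libraries standing apart were the lowest of each group, and the groups overlapped throughout. The log2 fold was 0.02 ± 0.30, and its sign turned when Tsc1-null EV replicate 2 or 3 or WT EV replicate 2 was left out (lowest -0.12). Of the 50-base words of Hspa8, 39.4% occur in other genes, most of them in Gm15459.

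**Figure D1:**
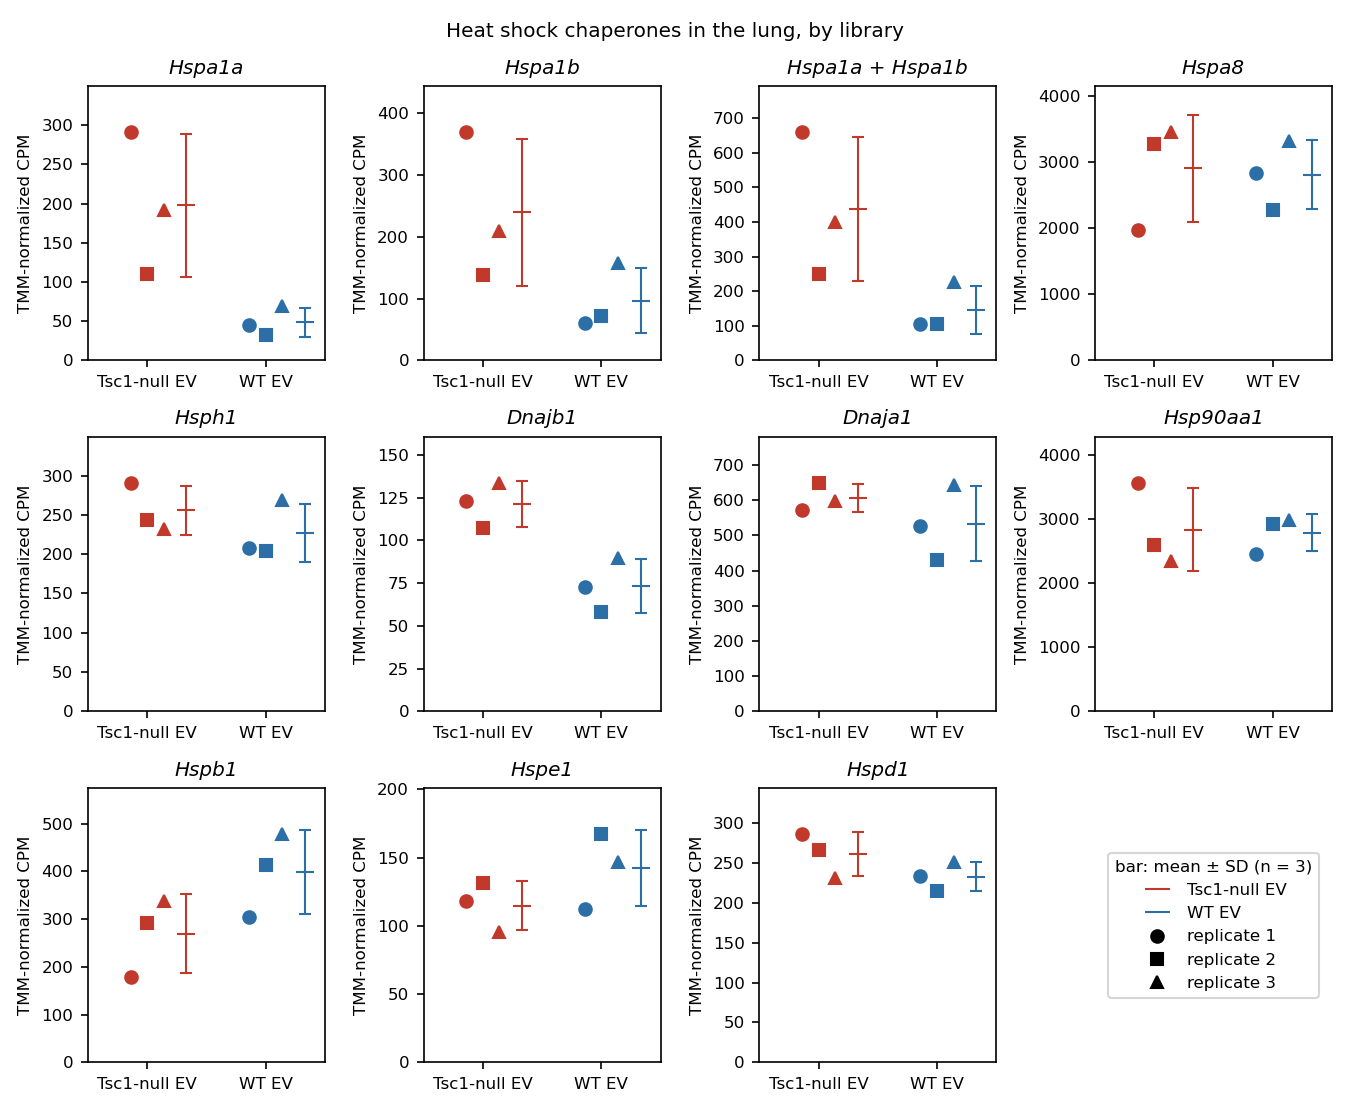
TMM-normalized CPM (vertical axes, each from 0) of the 10 genes and of summed Hspa1a and Hspa1b in each library, Tsc1-null EV left of WT EV, with the mean ± SD (n = 3) beside the points. The groups separate for Hspa1a, the sum and Dnajb1, and overlap in the other 8 panels.

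Of the HSP40 genes, Dnajb1, the inducible partner of HSP70 in breaking up aggregates, stood at 123.1, 107.1 and 133.7 CPM in Tsc1-null EV lungs, against 72.8, 58.1 and 89.6 CPM in WT EV lungs. All 3 Tsc1-null EV lungs were above all 3 WT EV lungs, and Tsc1-null EV replicate 1 did not stand out. The means were 121.3 ± 13.4 CPM and 73.5 ± 15.8 CPM (SD, n = 3 each), with a log2 fold of 0.73 ± 0.19. Dnajb1 shares 0.412% of its 50-base words with other genes, so few of its reads could have been split between copies. The gene occupies bases 83608193 to 83612653 of chromosome 8 (plus strand). Without both libraries standing apart its log2 fold was 0.56 ± 0.16, and with sample weights 0.41. Dnaja1, a farnesylated HSP40 that works with Hspa8, stood at 571.1, 649.6 and 597.3 CPM in Tsc1-null EV lungs, against 526.4, 429.3 and 643.1 CPM in WT EV lungs. These groups overlapped, with a log2 fold of 0.20 ± 0.19. Other genes hold 20.6% of the 50-base words of Dnaja1.

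Hsph1, the cytosolic HSP110, stood at 290.9, 243.5 and 232.5 CPM in Tsc1-null EV lungs, against 207.5, 204.6 and 269.5 CPM in WT EV lungs. The groups overlapped through WT EV replicate 3, and the log2 fold was 0.17 ± 0.17. Hsp90aa1, the inducible cytosolic HSP90, stood at 3564, 2591 and 2340.2 CPM in Tsc1-null EV lungs, against 2454, 2915 and 2986 CPM in WT EV lungs. Tsc1-null EV replicate 1 was the highest library and the other 2 of its group lay within or below the WT EV range. The log2 fold was 0.01 ± 0.25, and -0.17 without Tsc1-null EV replicate 1.

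Hspb1, the small heat shock protein HSP25 of mouse, lay on the lower side. It stood at 178.0, 292.0 and 338.2 CPM in Tsc1-null EV lungs, against 303.3, 414.0 and 478.6 CPM in WT EV lungs. The groups overlapped in that Tsc1-null EV replicate 3 lay above WT EV replicate 1. The means were 269.4 ± 82.4 CPM and 398.7 ± 88.6 CPM (SD, n = 3 each), with a log2 fold of -0.59 ± 0.27. It was -0.32 without Tsc1-null EV replicate 1, the lowest library, and -0.28 ± 0.19 without both libraries standing apart. Of its 50-base words, 50.1% occur in other genes, most of them in the pseudogene Hsp25-ps1.

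The mitochondrial pair Hspd1 (HSP60) and Hspe1 (HSP10) lie head to head on chromosome 1, where the annotated genes overlap by 112 bases at their starts. Hspd1 stood at 286.3, 265.5 and 231.1 CPM in Tsc1-null EV lungs, against 232.8, 214.4 and 250.3 CPM in WT EV lungs, a log2 fold of 0.16 ± 0.15. Hspe1 stood at 118.1, 131.0 and 95.4 CPM in Tsc1-null EV lungs, against 112.2, 167.4 and 146.9 CPM in WT EV lungs, a log2 fold of -0.30 ± 0.19. Both overlapped between the groups, on opposite sides of 0. Their ratio within a library, Hspe1 to Hspd1, was 0.412, 0.494 and 0.413 with Tsc1-null EV and 0.482, 0.781 and 0.587 with WT EV, where only Tsc1-null EV replicate 2 and WT EV replicate 1 overlapped.

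Counted over the 10 genes, 2 (Hspa1a and Dnajb1) had all 3 Tsc1-null EV values above all 3 WT EV values, as did 6.86% of all genes tested. None had them all below, as did 6.22% of all genes tested. Without both libraries standing apart the same 2 genes were higher (20.8% of all genes tested were) and none lower (21.5%). The median log2 fold was 0.45 over the 6 cytosolic inducible genes, 0.11 over the constitutive pair Hspa8 and Dnaja1 and -0.07 over the mitochondrial pair, against -0.02 over all genes tested. The 6 inducible genes did not move as a block, ranging from -0.59 for Hspb1 to 1.95 for Hspa1a. These values come from the contrast that chose the genes, so nothing is drawn from the counts. Without WT EV replicate 3, the count higher in every remaining Tsc1-null EV lung was 5, with Hspa1b, Hsph1 and Dnaja1 added, where 9.75% of all genes tested were. On the lower side, Hspb1 and Hspe1 separated the groups without WT EV replicate 1, and Hspb1 did without Tsc1-null EV replicate 3. WT EV replicate 3 had the highest WT EV value of Hspa1a, Hspa1b, Dnajb1, Hsph1, Dnaja1, Hspa8, Hsp90aa1, Hspb1 and Hspd1, all of the genes except Hspe1.

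The libraries spread most for the inducible HSP70s. Across all 6 libraries the highest value was 8.93 times the lowest for Hspa1a and 6.11 times for Hspa1b, against 2.69 for Hspb1, 2.30 for Dnajb1 and 1.33 to 1.75 for the other 6 genes. Within a group the SD was 46.0% of the mean for Hspa1a with Tsc1-null EV and 38.1% with WT EV, against 10.7% and 7.72% for Hspd1. The counting error at the fewest reads of each gene was 0.750% to 6.71%. Tsc1-null EV replicate 1 held the highest value of 5 genes (Hspa1a, Hspa1b, Hsph1, Hsp90aa1 and Hspd1) and the lowest of 2 (Hspa8 and Hspb1), while WT EV replicate 2 held the lowest of 5.

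**Figure D2:**
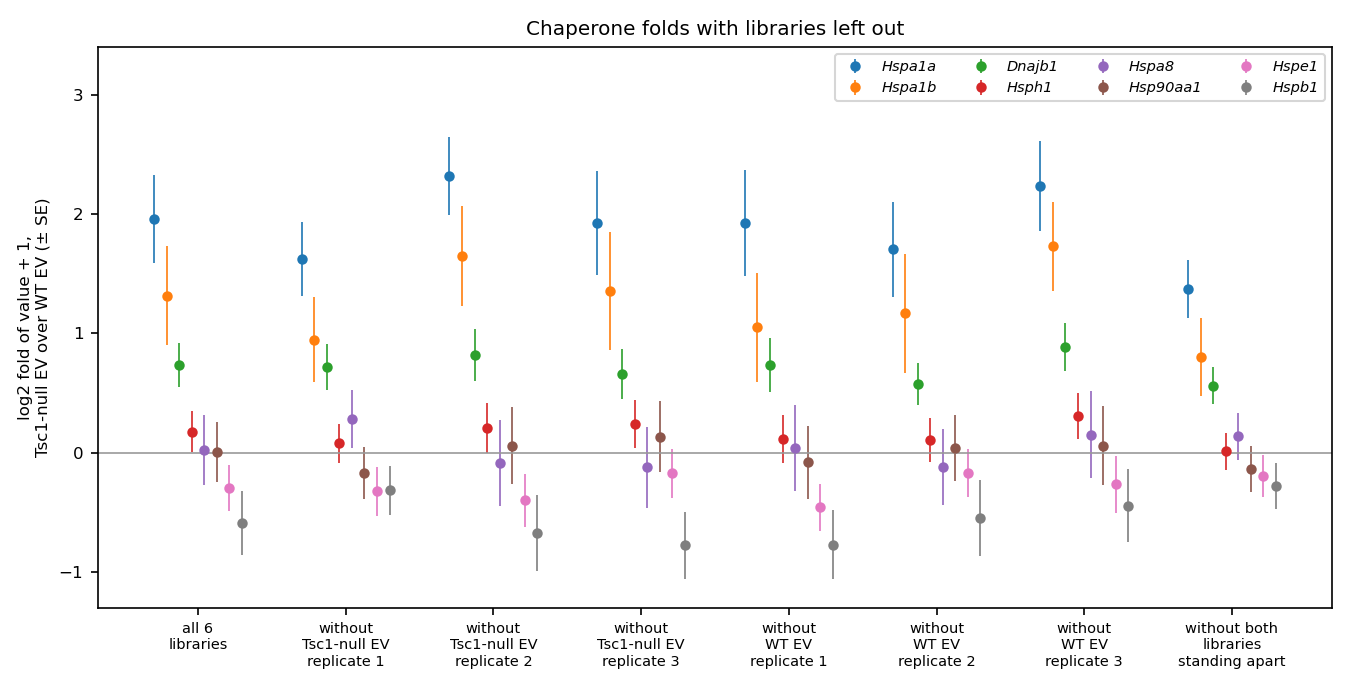
Difference in log2(value + 1), lungs with Tsc1-null EV minus lungs with WT EV (± SE) for 8 of the genes with all 6 libraries and with libraries left out. Hspa1a, Hspa1b and Dnajb1 stay above 0 and Hspb1 and Hspe1 below 0 in every column shown, while Hspa8 and Hsp90aa1 lie on both sides of 0.

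A ratio between transcripts within a library does not depend on the scaling between libraries. Summed Hspa1a and Hspa1b relative to Hspa8, inducible over constitutive HSP70, was 0.335, 0.0759 and 0.116 in Tsc1-null EV lungs and 0.0371, 0.0459 and 0.0682 in WT EV lungs. All 3 Tsc1-null EV ratios were above all 3 WT EV ratios, with a log2 difference of 1.56, and Tsc1-null EV replicate 1 was far above the rest. The difference was 0.94 without that library and 0.90 without both libraries standing apart. Dnajb1 relative to Hspa8 was 0.0624, 0.0327 and 0.0387 in Tsc1-null EV lungs and 0.0257, 0.0256 and 0.0270 in WT EV lungs. The WT EV ratios lay close together, and the Tsc1-null EV ratios were all above them, with a log2 difference of 0.72. It was 0.45 without Tsc1-null EV replicate 1, whose Hspa8 was low, and 0.43 without both libraries standing apart. Hsp90aa1 relative to its constitutive counterpart Hsp90ab1 was 0.937, 0.864 and 0.793 in Tsc1-null EV lungs and 0.732, 0.776 and 0.804 in WT EV lungs, where Tsc1-null EV replicate 3 fell inside the WT EV range. Hsph1 relative to Hspa4, its constitutive relative, was 1.67, 1.12 and 1.13 in Tsc1-null EV lungs and 1.10, 1.42 and 1.59 in WT EV lungs, with full overlap.

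**Figure D3:**
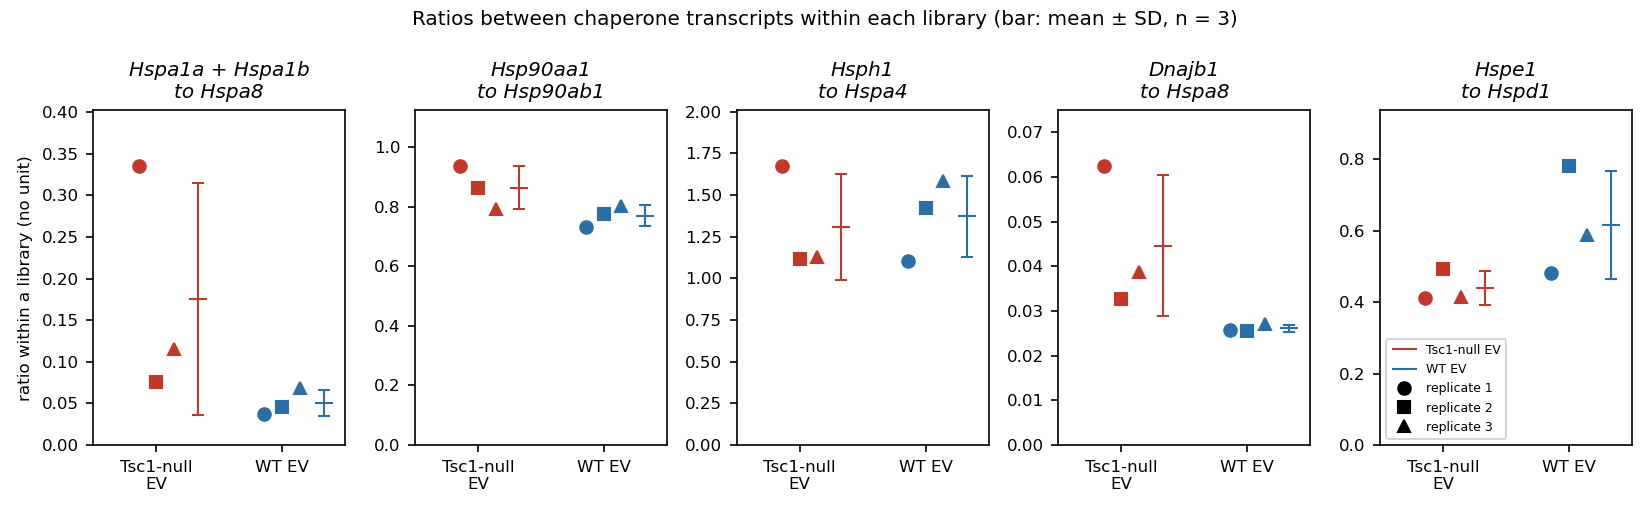
Ratios between chaperone transcripts within each library (vertical axes, no unit, each from 0), Tsc1-null EV left of WT EV, with mean ± SD (n = 3). The groups separate for Hspa1a plus Hspa1b to Hspa8 and for Dnajb1 to Hspa8, and overlap in the other 3 panels.

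Levels of different genes were compared as CPM per kb of the longest coding transcript. Hsp90ab1 stood highest at 1290 ± 190.1 CPM per kb with Tsc1-null EV and 1431 ± 88.5 with WT EV, followed by Hspa8 at 1212 ± 338.1 and 1172 ± 218.3 and Hsp90aa1 at 863.1 ± 197.0 and 848.8 ± 88.0. The order of the means of Hsp90ab1 and Hspa8 with Tsc1-null EV rested on replicate 1, at 1509 and 823.6 CPM per kb, since Hspa8 was the higher in replicates 2 and 3. Hspa8 also lay below Hsp90aa1 in Tsc1-null EV replicate 1 (823.6 against 1086 CPM per kb) and above it in replicates 2 and 3. These orders were not tested. Hspa1b, at 85.3 ± 42.2 and 34.3 ± 18.8, and Hspa1a, at 66.6 ± 30.6 and 16.4 ± 6.27, were among the lowest of the 10 genes per kb with WT EV, together with Dnajb1 at 40.5 ± 4.47 and 24.5 ± 5.26. Hspa8 and Hsp90aa1 were thus abundant lung transcripts in every library, above the Hspa1 pair per kb.

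Among the regulators, Hsf1, the heat shock factor itself, stood at 24.1, 26.8 and 31.7 CPM in Tsc1-null EV lungs, against 30.6, 33.1 and 37.4 CPM in WT EV lungs (log2 fold -0.29 ± 0.17). The groups overlapped through Tsc1-null EV replicate 3. Hsf2, Hsf4 and Hsbp1, which binds HSF1, had log2 folds of 0.00, -0.12 and -0.05. Hsf2bp was below the filter. None of the 4 regulators tested passed limma or separated the groups.

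No gene of the lists of related genes passed limma. Of all genes tested 47.3% had a log2 fold above 0, 6.86% were higher and 6.22% lower with no overlap, and the lists are to be read against these shares. Some genes stand in more than 1 list. Of the 11 other genes of the HSP70 superfamily, 6 had a log2 fold above 0 (median 0.05), and 1 had every Tsc1-null EV value above every WT EV value. This was Hspa2, a paralog known for its role in sperm development, at 99.8, 70.2 and 56.9 CPM in Tsc1-null EV lungs against 50.6, 28.1 and 50.3 CPM in WT EV lungs (log2 fold 0.81 ± 0.28, limma adjusted p = 0.721). Hspa5, the HSP70 of the endoplasmic reticulum, had a log2 fold of -0.05 ± 0.20 and Hspa9, that of mitochondria, one of 0.19 ± 0.15, both with overlapping groups. Hspa1l, next to Hspa1a on the chromosome, stood at 3.61, 4.42 and 4.09 CPM in Tsc1-null EV lungs and 2.68, 4.70 and 2.84 CPM in WT EV lungs, which overlapped. Of the 5 constitutive counterparts, Hspa2 apart, Hsp90ab1, Hspa4, Dnaja2 and Dnajb6 had log2 folds from -0.16 to 0.25. Leaving out both libraries that stood apart gave a median of 0.13 for the HSP70 list, with 9 of 11 genes above 0. For the counterparts it gave a median of -0.05, with 2 of 5 above 0. Of all genes tested 49.5% lay above 0 in that setting.

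Of 16 cochaperones of HSP70 and HSP90, 10 had a log2 fold above 0 and the median was 0.03, against 6 and -0.05 without both libraries standing apart. The 1 whose groups did not overlap was Bag3, an HSF1 target that links HSP70 to autophagy, at 101.6, 119.9 and 124.3 CPM in Tsc1-null EV lungs against 93.2, 70.7 and 87.8 CPM in WT EV lungs. Its log2 fold was 0.46 ± 0.16 (limma adjusted p = 0.721). Of 15 HSF1 targets other than the 10 genes, 10 lay above 0 (median 0.06), against 7 (median -0.05) without both libraries standing apart. With all libraries 3 lay higher with no overlap. Besides Bag3 these were Dnajb4, which also counts among the HSP40 genes below, and Mt1, a metallothionein that also responds to zinc. Mt1 stood at 60.9, 55.6 and 50.0 CPM in Tsc1-null EV lungs, against 46.3, 47.5 and 41.6 CPM in WT EV lungs (log2 fold 0.29 ± 0.15).

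Of 15 other HSP40 genes, 7 lay above 0 (median -0.00), against 5 (median -0.05) without both libraries standing apart. With no overlap between the groups, Dnajb4 was higher with Tsc1-null EV and Dnajb5 and Dnajb9 were lower. The lowest Tsc1-null EV value of Dnajb4, 106.2 CPM in replicate 3, barely exceeded the highest WT EV value, 105.7 CPM in replicate 1. Dnajb9, an HSP40 of the endoplasmic reticulum, stood at 77.0, 78.0 and 71.3 CPM in Tsc1-null EV lungs, against 106.4, 78.8 and 84.9 CPM in WT EV lungs (log2 fold -0.24 ± 0.16). Of 15 endoplasmic reticulum chaperone genes, 4 lay above 0 (median -0.06). All 8 subunits of the cytosolic chaperonin CCT, which folds actin and tubulin, had a log2 fold above 0, from 0.02 to 0.25 (median 0.15), and Tcp1 was higher in all 3. Of 8 mitochondrial chaperones and proteases 5 lay above 0 (median 0.01), and the protease gene Clpp was lower in all 3. Clpp stood at 23.7, 35.5 and 30.9 CPM in Tsc1-null EV lungs, against 40.5, 39.1 and 38.0 CPM in WT EV lungs. Without both libraries standing apart, 6 endoplasmic reticulum genes (median -0.02), 7 CCT genes (0.15) and 5 mitochondrial genes (0.09) lay above 0.

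Of the 8 genes listed with Hspb1 as small heat shock genes, 6 were tested. Only 1, Hspb11, lay above 0 (median -0.33), and 1 was lower with no overlap. Without both libraries standing apart 3 of the 6 lay above 0 and the median was -0.05. Cryab, the lens and muscle protein alpha B crystallin, stood at 157.0, 311.0 and 362.1 CPM in Tsc1-null EV lungs, against 363.0, 286.9 and 378.2 CPM in WT EV lungs. Hspb7, a heart small heat shock gene, stood at 16.8, 32.3 and 26.2 CPM in Tsc1-null EV lungs, against 39.5, 31.0 and 33.6 CPM in WT EV lungs. Both overlapped, and both were lowest in Tsc1-null EV replicate 1, as Hspb1 was. The summed level of the 5 heart muscle markers was 151.6, 490.5 and 368.8 CPM in the Tsc1-null EV lungs, against 585.2, 373.6 and 631.4 CPM in the WT EV lungs, also lowest in Tsc1-null EV replicate 1. All 5 of these markers had log2 folds below 0 (median -1.04), and 4 of them (median -0.88) without both libraries standing apart. In bulk lung, fewer cells of a type and less RNA per cell cannot be told apart, and the part of heart muscle in the small heat shock values was not tested.

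**Figure D4:**
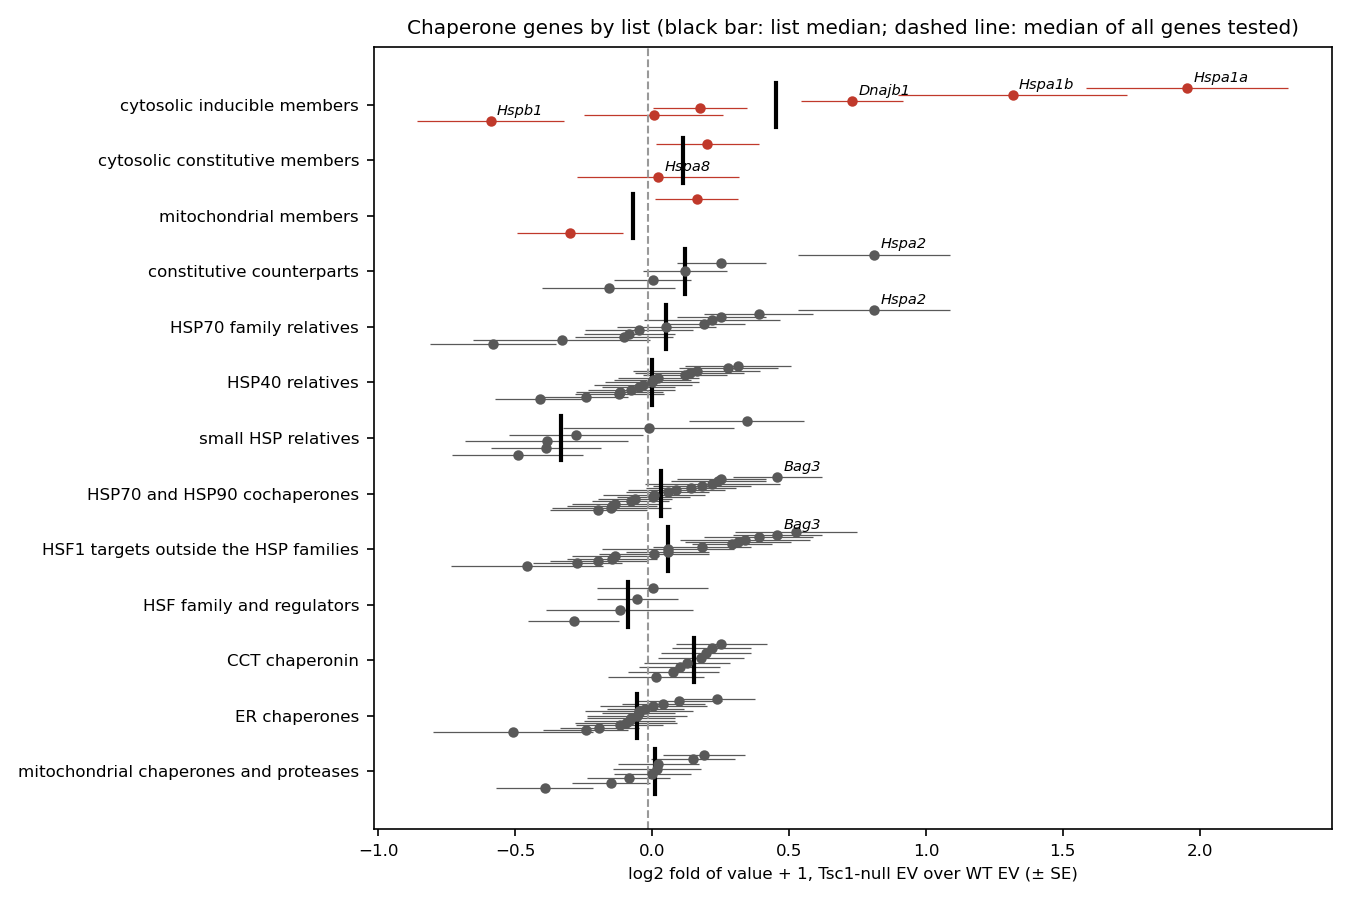
Difference in log2(value + 1), lungs with Tsc1-null EV minus lungs with WT EV (points, ± SE) for the 10 genes (red) and for related chaperone genes (grey) by list, with list medians (black bars) and the median of all genes tested (dashed line, -0.02). Hspa1a and Hspa1b lie farthest to the right, and no related gene lies beyond Hspa2 at 0.81.

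Other cell types and responses were measured beside the chaperones. The 7 ciliated cell markers matched had log2 folds above 0 (median 0.65), with a summed level of 1757, 953.3 and 907.6 CPM in Tsc1-null EV lungs, against 913.9, 684.2 and 958.4 CPM in WT EV lungs. As for the Hspa1 pair, Tsc1-null EV replicate 1 was the highest, but the summed levels of the groups overlapped. The median was 0.19 without both libraries standing apart, with Rsph1 and Tppp3 below 0. All 5 mesothelial markers lay below 0 (median -1.82), at a summed 53.3, 284.7 and 403.0 CPM with Tsc1-null EV and 413.1, 988.4 and 363.6 CPM with WT EV. Both extremes were the libraries standing apart, without which the median was -0.26 and Msln lay above 0. The 6 endothelial markers lay below 0 (median -0.33), summing to 2341 to 3811 CPM with Tsc1-null EV and 3284 to 4009 CPM with WT EV, and the median was -0.20 without both libraries standing apart. The 5 genes of dividing cells lay above 0 (median 1.03), summing to 174.2 to 200.9 CPM with Tsc1-null EV and 83.9 to 183.2 CPM with WT EV. Their median was 0.51 without those libraries, with Pcna below 0. The 5 alveolar type 2 markers (median 0.47) and 3 club cell markers (median 0.65) lay above 0, with medians of 0.50 and 0.13 without those libraries. Of the 5 alveolar type 1, 4 macrophage and 5 neutrophil markers matched, 1, 2 and 2 lay above 0 (medians -0.18, 0.02 and -0.00), and without those libraries the medians were -0.18, 0.57 and 0.35. Single genes of these lists did separate the groups. Dnah9 and Tekt1 (ciliated), Top2a and Mcm6 (dividing), Abca3 (alveolar type 2) and Retnlg (neutrophil) were higher with no overlap, as were 6.86% of all genes tested. Wt1 and Gpm6a (mesothelial) and Egfl7 (endothelial) were lower with no overlap, as were 6.22% of all genes tested. No marker of these lists was at 0 in every library, and their part in the chaperone values was not tested. Of 14 immediate early genes, which respond within minutes to handling, 8 lay above 0 (median 0.07), and none separated the groups. Without both libraries standing apart 1 lay above 0 (median -0.24), and 8 were lower in both remaining Tsc1-null EV lungs, where 21.5% of all genes tested were. They summed to 2113, 1540 and 1676 CPM with Tsc1-null EV and 1894, 1437 and 1745 CPM with WT EV. Rbm3 and Cirbp, RNA-binding proteins induced by cold, had log2 folds of 0.47 ± 0.30 and 0.38 ± 0.29, with overlapping groups and a median of 0.00 without those libraries.

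The genes whose profile over the 6 libraries was most like that of summed Hspa1a and Hspa1b were ranked by the mean absolute difference of standardized log2 levels among 11685 genes. The nearest 5 were Eva1c, Gm13826, Ddx19a, Sec22c and Herpud1, with mean differences of 0.0978 to 0.154 SD. Herpud1, a membrane protein of endoplasmic reticulum quality control, stood at 243.0, 205.5 and 222.6 CPM in Tsc1-null EV lungs, against 187.2, 184.5 and 196.4 CPM in WT EV lungs (log2 fold 0.24 ± 0.14). Eva1c stood at 32.3, 22.2 and 25.1 CPM in Tsc1-null EV lungs, against 15.7, 16.9 and 21.5 CPM in WT EV lungs. These profiles were picked for likeness, so their separation between the groups was fixed in part by the choice.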

How the data were processed

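The values the authors deposited are a TMM-normalized signal, going by the table's own name, and were read as CPM on a linear scale. The submitters' processing notes name Bowtie2 2.1.0, RSEM 1.2.15, edgeR and build mm10 and give them no roles. Annotation, strand use and the treatment of multi-mapping reads are not stated there. Values in a column were multiples of a single step, which gave back whole reads (100% of values within 0.001 of a whole number).

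Groups came from the treatment label, and replicate numbers from accession order. Nothing in the labels tells how the mice were housed or processed, and they name no batch, so p-values measure only the spread between these samples. Libraries of a group differed by a chi-square of 9.21 to 58.5 per degree of freedom, far above sampling noise. The members and lists were chosen with earlier results of these data known. Genes averaging at least 1 were analysed as log2(value + 1), 14159 in all, with limma 3.58.1 in R 4.3.3 (trend, two-sided moderated test, Benjamini-Hochberg, threshold 0.05). A fold on this scale understates the change of low genes. As alternatives, the recovered reads went into the quasi-likelihood test of edgeR 4.0.16 and into DESeq2 1.42.0, whose own filter left 9487 genes with an adjusted p. Further alternatives changed the pseudocount (0.5, 0.1), the filter (none, or 5), the scaling (median or quantile), the trend, the sample weights (arrayWeights) or the libraries kept. The fits were tested on simulated data. Named by rule were the 10 members, the measured genes of the counterpart, regulator and HSP70 lists, up to 4 genes of smallest unadjusted p in each other list, the most expressed marker of each cell type, 3 nuclear or ribosomal precursor RNAs, and the 5 genes closest in profile. Some of these are given only through their list, and 1 is not reported here. Adgre1 and Cfap43 were not matched by symbol and were not analysed here. Coordinates and transcripts are from GENCODE M21 on GRCm38, to which mm10 corresponds.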

Additional observations from a re-analysis of the deposited data

How the results depend on the processing

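No paired analysis was possible because the labels number the 6 samples separately and the groups share no replicate number. The log2 folds of Hspa1a, Hspa1b, their sum, Dnajb1, Dnaja1 and Hspd1 were above 0, and those of Hspb1 and Hspe1 below 0, in all 17 alternatives, and the signs of Hspa8, Hsp90aa1 and Hsph1 were not. The sum ranged from 0.57 with sample weights to 1.94 without WT EV replicate 3. With DESeq2 it was 1.60 and passed the threshold (adjusted p = 0.0390, against 0.195 to 0.994 in the other alternatives). DESeq2 also called Hspa1a. The genes were chosen with this comparison known, so calls of them are given as a description and not as a test. With sample weights limma called Hspa1a and Hspb1 among 583 genes higher and 467 lower of the 14159 tested. Those weights were 3.953 for Tsc1-null EV replicate 2 and 4.185 for WT EV replicate 3, against 0.21 to 0.93 for the rest. That fit thus rests largely on 1 lung per group. DESeq2 called 8 genes higher and 6 lower in all. Without both libraries standing apart limma called 12 higher and 13 lower, and none of the 10 genes. With 1 library left out limma called 0 to 1 higher and 0 to 1 lower. The number of the 10 genes higher in every Tsc1-null EV lung was then 2 to 5, where 9.1% to 14.9% of all genes tested were. Hspb1 was lower with no overlap without Tsc1-null EV replicate 3, and Hspb1 and Hspe1 were so without WT EV replicate 1. The share of all genes lower in these fits is not given here. The cause of these differences was not tested. The 3 medians over the chaperones moved by less than the spread between replicates in every alternative. So did the 3 ratios planned, which were computed only with libraries left out. Leaving out 1 library could not move such a ratio beyond that spread, which includes the library left out. Nothing is therefore drawn from this for the ratios. Yet the sign turned for the constitutive pair without WT EV replicate 2 (-0.03), for the mitochondrial pair without Tsc1-null EV replicate 3 (0.04), and for Hsph1 to Hspa4 in 3 of the left-out fits (0.01 to 0.03), and the inducible median was 0.12 with sample weights. The values of the Dnajb1 and Hspe1 ratios and of the lists of other genes with libraries left out were added after seeing the data. At the read depths here the counting error of the 10 genes is at most 6.71%, and the source of the wider spread between libraries was not tested.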
